A study of Mus musculus with 4 samples.

Results

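The genes Ptgds, Foxc1 and Col6a1 of the brain coverings, Ttr, Cldn2 and Kl of the choroid plexus, and Msx1 of the dorsal midline were followed through a comparison of neocortical RNA from null mutant mouse embryos with RNA of wild-type embryos. They are 7 of the 6041 genes that the array's annotation names, and were taken as every probe with one of these symbols. Each symbol had 1 probe, and all 7 probes had a value on all 4 arrays. The genes were picked because of the log ratios they showed on these arrays, so their values are described here and not tested.

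Each of the 4 two-colour arrays held total RNA from the neocortex of a null embryo sample, labelled as a separate biological replicate, in one channel, and a pool of wild-type neocortical RNA in the other. The null and the wild-type embryos share the C57BL/6 background and were taken at embryonic day 16, except that one of the labels of replicate 1 names day 14 for its null RNA. The labels call the mutant brain silent at its synapses, and the series asks which genes depend on synaptic activity. Null RNA carried the dye Cy3 on replicate 1 and Cy5 on replicates 2, 3 and 4. The single wild-type pool, made from 4 samples, counts as 1 control sample and is a part of every ratio.

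The deposited value of a probe is a log ratio of the channels, taken here as log2. Neither the numerator nor the log base is given in the sources used here. A negative value can therefore mean less or more RNA in the null, and signs are given as deposited. Replicates 2 to 4 ran in the same orientation, so a sign has the same meaning on each of them, and the sign of replicate 1 may have to be turned. The files give no signal level, so that neither the presence of the marker transcripts nor of neocortical transcripts could be checked.

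The meninges are the connective tissue sheets that wrap the brain, built by fibroblasts of neural crest and mesodermal origin. The choroid plexus is the secretory epithelium, folded over a vascular core, that makes cerebrospinal fluid and grows out from the dorsal midline of the ventricles next to the developing cortex. Because both tissues touch the embryonic neocortex and hold a few transcripts at very high levels, their genes are commonly read as signs of how cleanly a cortex was dissected. The question put to the values is whether these genes varied together between arrays, and the part that carried-over tissue had in them was not tested.

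Of the 7 genes, Ptgds, Col6a1 and Msx1 were negative on all 4 arrays as deposited, and Cldn2 was positive on all 4. The 250 bases before the RefSeq transcription start of these genes are shown because these members kept a single sign on the arrays as deposited. The sequences are from RefSeq, build GRCm38.p6, written 5′ to 3′ along the gene's own strand, and capitals mark matches to the motifs searched. Ptgds lies at chr2:25469750-25469999 on the minus strand, Col6a1 at chr10:76726045-76726294 on the minus strand, Msx1 at chr5:37824586-37824835 on the minus strand and Cldn2 at chrX:139800558-139800807 on the plus strand.
Ptgds: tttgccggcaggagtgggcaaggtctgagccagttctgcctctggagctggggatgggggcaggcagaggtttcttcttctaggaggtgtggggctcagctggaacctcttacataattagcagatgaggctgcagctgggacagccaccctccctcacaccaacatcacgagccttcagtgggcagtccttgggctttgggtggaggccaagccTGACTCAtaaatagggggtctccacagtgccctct
Col6a1: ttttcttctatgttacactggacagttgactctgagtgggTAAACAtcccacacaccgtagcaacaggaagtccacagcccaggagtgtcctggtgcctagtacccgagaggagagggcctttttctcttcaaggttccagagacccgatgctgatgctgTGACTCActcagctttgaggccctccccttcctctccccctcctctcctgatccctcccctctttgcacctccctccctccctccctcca
Msx1: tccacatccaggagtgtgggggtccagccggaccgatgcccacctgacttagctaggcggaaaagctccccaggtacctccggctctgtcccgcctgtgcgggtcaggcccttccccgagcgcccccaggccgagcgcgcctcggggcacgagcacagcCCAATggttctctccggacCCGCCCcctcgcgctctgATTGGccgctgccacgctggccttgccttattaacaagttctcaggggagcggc
Cldn2: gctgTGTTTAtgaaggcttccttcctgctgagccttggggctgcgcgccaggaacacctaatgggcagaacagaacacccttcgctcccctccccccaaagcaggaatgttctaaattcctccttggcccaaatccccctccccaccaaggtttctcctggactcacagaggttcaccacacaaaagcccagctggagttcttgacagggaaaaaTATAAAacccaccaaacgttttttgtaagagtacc

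The motifs searched were the AP-1 site, written TGACTCA, the TATA box as TATAAA, the GC box as GGGCGG, the CCAAT box by its own letters, a forkhead core as TGTTTA, an Otx core as GGATTA and an Msx core as TAATTG. Each was searched on both strands, and no matches overlapped in these windows. All of these motifs were chosen after the members' promoter sequences had been looked at, and TGACTCA was chosen because it had been seen in both Ptgds and Col6a1. It lay 35 to 29 bases before the start of Ptgds and 90 to 84 bases before that of Col6a1, and 4.46% of 32851 RefSeq windows of this length hold it. The forkhead core, held by 12% of windows, occurred in Col6a1 and in Cldn2. Cldn2 had a TATA box 35 to 30 bases before its start, as do 12.4% of windows somewhere in their length. The Msx1 window had the CCAAT letters at 2 places and a GC box, which 33.8% and 32.7% of windows hold. Neither the Otx core nor the Msx core was found in the windows of Ptgds, Foxc1, Col6a1, Cldn2, Kl or Msx1. These are matches of letters and not known sites.

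Across each array, 5777 to 5873 of 6856 probes had a value. The median log ratio lay between -0.031 and 0.0044, and the SD over probes was 0.40 to 0.63, widest on replicate 3. Different probes of the same gene, available for 103 to 108 genes, had a pooled SD of 0.39 to 0.52 within an array. Gapdh, spotted 78 times, had an SD between spots of 0.09 to 0.20. These spreads are the nearest available measure of technical error for a gene with 1 probe. In a limma fit of replicates 2 to 4, 0 of 5720 probes had an adjusted p under 0.05, which is 0% called, and 553, or 9.67%, had an unadjusted p under 0.05. Without replicate 2 the latter number was 236, and with array weights 3 probes passed after adjustment and 1067 before. The members were selected on this contrast, so nothing is read from how they stood in that fit.

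All 7 members had a single sign on replicates 2 to 4, a property by which they could be noticed in the first place. Over all probes that share was 33.5%, with 17.3% negative and 16.3% positive throughout. Ptgds, Foxc1, Col6a1, Ttr and Msx1 were negative on each of these arrays, and Cldn2 and Kl positive on each.

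**Figure D1:**
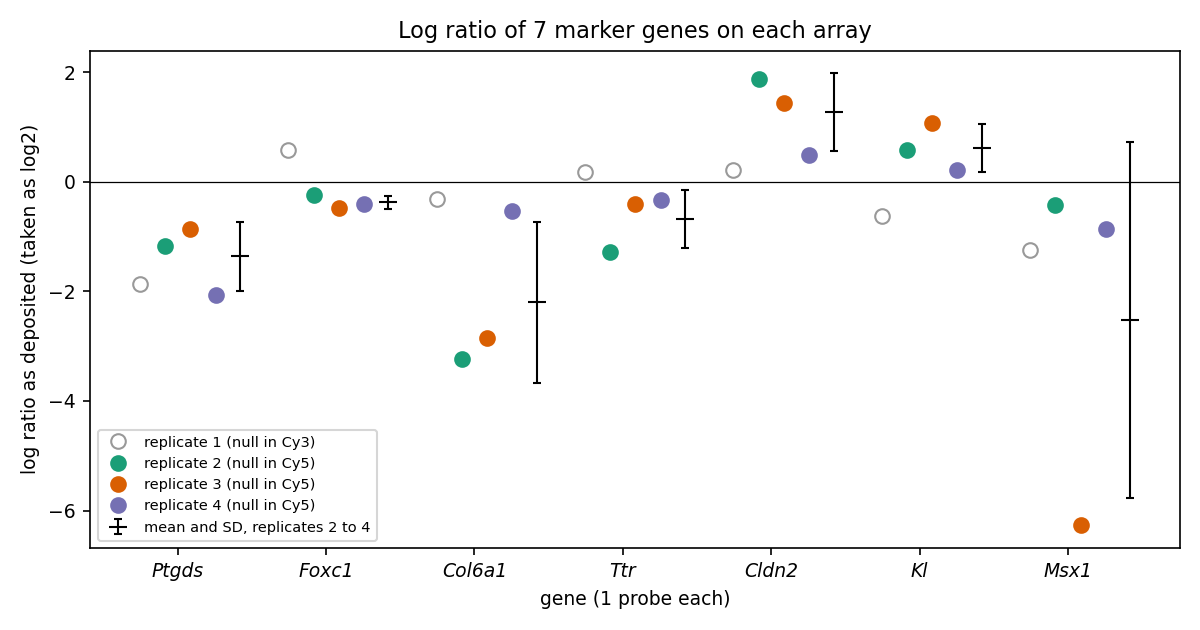
Log ratio as deposited, taken as log2 (vertical axis), of each of the 7 genes (horizontal axis) on replicate 1 (open grey) and replicates 2 to 4 (filled), with the mean and SD of replicates 2 to 4 in black. Ptgds, Col6a1 and Msx1 lie below 0 on every array and Cldn2 above 0 on every array, while Foxc1, Ttr and Kl have replicate 1 on the opposite side of 0 from the other replicates.

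Ptgds encodes the lipocalin-type prostaglandin D synthase, which makes prostaglandin D2 and is secreted into cerebrospinal fluid by arachnoid and choroid plexus cells. Its log ratio was -1.86, -1.16, -0.86 and -2.06 on replicates 1 to 4 in turn. Replicates 1 and 4 were the lowest and replicate 3 the nearest to 0. The mean over replicates 2 to 4 was -1.36 ± 0.62 (SD, n = 3), a 2.57-fold difference in size between the channels. On replicate 4 only 16 probes of the whole array were lower, which made it the 17th from the bottom, and on replicate 1 as deposited it was 24th from the bottom, whereas on replicate 3 it stood 261st. With replicate 1 turned, the mean over 4 arrays was -0.56 ± 1.69 (SD, n = 4), against -1.49 ± 0.57 (SD, n = 4) with replicate 1 as deposited.

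Foxc1 encodes a forkhead transcription factor of the mesenchyme that forms the meninges and skull. The log ratio was 0.57, -0.24, -0.48 and -0.41 on replicates 1 to 4 in turn. Replicates 2 to 4 lay close together, at -0.38 ± 0.12 (SD, n = 3), which is 1.30-fold in size, and replicate 1 had the opposite sign as deposited. Both this spread and the size of the mean were below the pooled SD of 0.39 to 0.52 between probes of a gene. That SD is for single values within an array and includes differences between probes, so it is not the error of a mean of 3 arrays. With replicate 1 turned the mean over 4 arrays was -0.43 ± 0.14 (SD, n = 4). With it as deposited, the mean was -0.14 ± 0.49 (SD, n = 4).

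Col6a1 encodes the alpha 1 chain of collagen VI, a microfibril of the matrix around fibroblasts and vessels. Its values were -0.31, -3.23, -2.85 and -0.53 on replicates 1 to 4 in turn. Replicates 2 and 3 were far below replicates 1 and 4, with no value in between. The mean over replicates 2 to 4 was -2.20 ± 1.46 (SD, n = 3), or 4.60-fold in size. Col6a1 was the 6th lowest probe on replicate 2 and the 17th lowest on replicate 3, but only the 338th on replicate 4. It was thus nearest to 0, among replicates 2 to 4, on the array where Ptgds was farthest from 0.

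Among the choroid plexus genes, Ttr encodes transthyretin, the carrier of thyroid hormone and of retinol-binding protein, which is among the most abundant transcripts of that epithelium. Ttr had 0.18, -1.29, -0.41 and -0.33 on replicates 1 to 4 in turn. Replicate 2 stood apart below the other replicates, where Ttr was the 64th lowest of 5792 probes, and on replicates 3 and 4 it was within the lowest 18.4% and 13.2%. The mean over replicates 2 to 4 was -0.68 ± 0.53 (SD, n = 3), which is 1.6-fold in size. Without replicate 2 it was -0.37, smaller in size than the pooled SD between probes of a gene, which is for single values and is not the error of a mean.

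Cldn2 encodes claudin 2, the pore-forming tight junction protein of leaky epithelia such as the choroid plexus. Its log ratio was 0.21, 1.88, 1.44 and 0.49 on replicates 1 to 4 in turn. Replicates 2 and 3 were high and replicates 1 and 4 low, the same split as for Col6a1 with the opposite sign. The mean over replicates 2 to 4 was 1.27 ± 0.71 (SD, n = 3), a 2.41-fold size. Only 5 probes were higher on replicate 2, where Cldn2 ranked 6th from the top, while on replicate 4 it ranked 385th.

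Kl encodes klotho, a co-receptor for FGF23 that is made in the choroid plexus and the kidney. Kl had -0.62, 0.57, 1.07 and 0.21 on replicates 1 to 4 in turn. It was highest on replicate 3 and lowest on replicate 1, which had the opposite sign to the others as deposited. The mean over replicates 2 to 4 was 0.62 ± 0.43 (SD, n = 3), or 1.53-fold in size, and 0.39 without replicate 3. With replicate 1 turned, the mean over 4 arrays was 0.62 ± 0.35 (SD, n = 4), and as deposited it was 0.31 ± 0.71 (SD, n = 4).

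Msx1, a homeobox repressor induced by BMP signals in the roof plate and in neural crest derivatives, had -1.25, -0.43, -6.27 and -0.87 on replicates 1 to 4 in turn. The value on replicate 3 was the lowest of all 5777 probes of that array, and the other values lay within 1 unit of each other. The mean over replicates 2 to 4 was -2.52 ± 3.25 (SD, n = 3), so that the SD exceeded the mean. Without replicate 3 the mean was -0.65. The probe's rank was 739th from the bottom on replicate 2 and 101st on replicate 4. On replicate 1 it was 88th from the bottom as deposited, and with that array turned it was 88th from the top at 1.25.

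**Figure D2:**
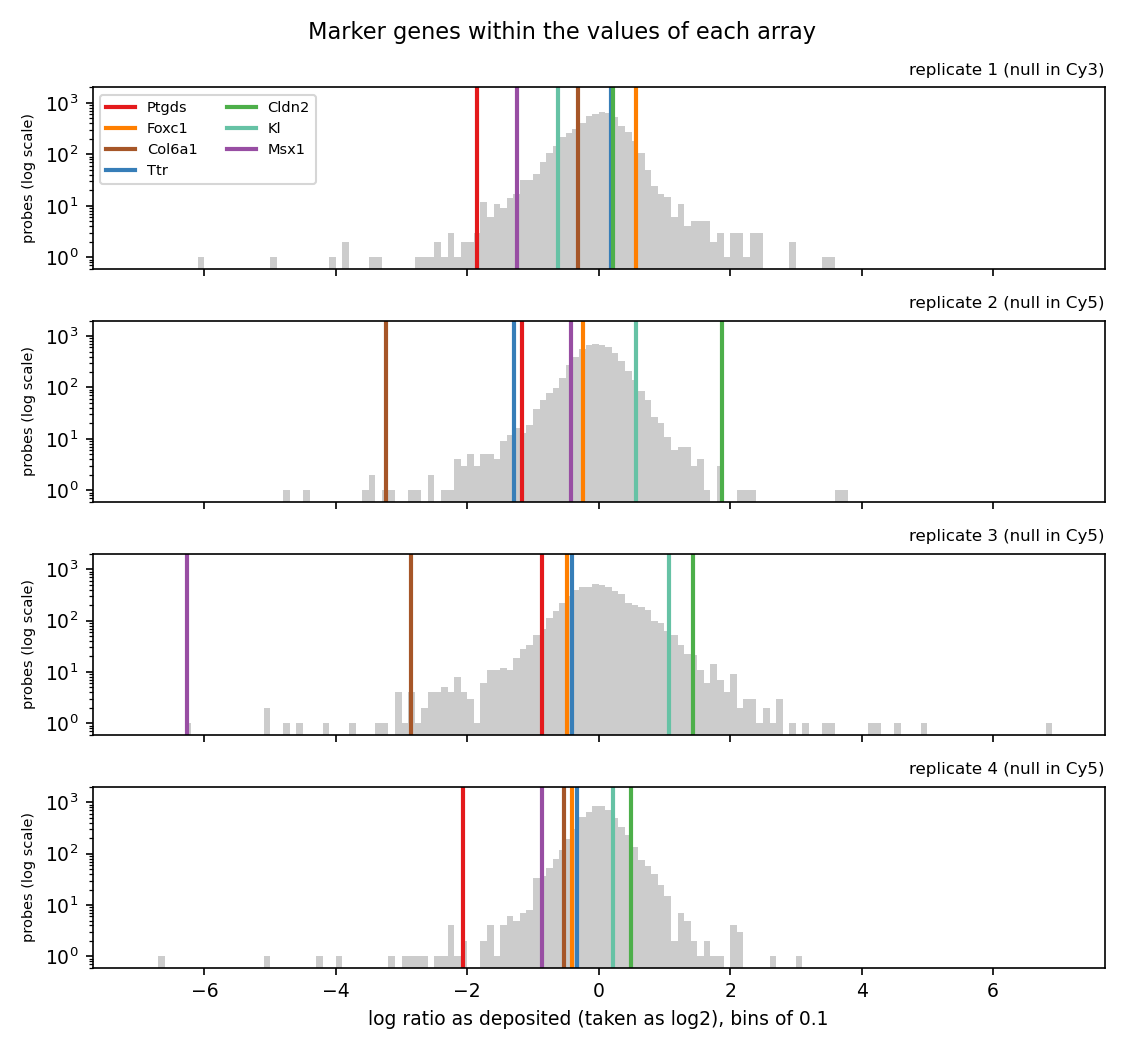
Number of probes (vertical axis, log scale) by log ratio as deposited in bins of 0.1 (horizontal axis) on each array, with the 7 genes as coloured lines. Msx1 is the lowest probe of replicate 3 at -6.27, Col6a1 lies in the lower tail of replicates 2 and 3, and Ptgds in the lower tail of replicates 1 and 4.

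The genes did not follow a common order over the arrays. From lowest to highest, replicates 2, 3 and 4 came in 4 different orders among the 7 genes. As deposited, Col6a1 and Ttr were lowest on replicate 2 and highest on replicate 4, and Cldn2 had exactly the reverse order. Foxc1 and Msx1 were lowest on replicate 3 and highest on replicate 2. Ptgds and Kl were lowest on replicate 4 and highest on replicate 3. Of the 21 pairs of members, 3, or 14.3%, had the same order and 2 the reverse.

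Within neither tissue did all genes have the same order. Of the choroid plexus genes, Ttr and Cldn2 had opposite signs on replicates 2 to 4 and, as deposited, reverse orders. Kl had the sign of Cldn2 with another order. Of the genes of the meninges, Ptgds, Foxc1 and Col6a1 had a shared sign but each its own order. The pairs with the same order, Col6a1 with Ttr, Foxc1 with Msx1 and Ptgds with Kl, each joined genes that are assigned here to different tissues. Most of the possible pairs of the 7 genes do so as well. Ptgds, counted here with the meninges, is also secreted by choroid plexus cells, so its pair with Kl need not cross tissues. When the arrays were set to a common scale, because replicate 3 had the widest spread, 2 pairs shared an order, Ptgds with Kl and Foxc1 with Cldn2, and 5 different orders were seen. The shared order of Ptgds and Kl was the one kept on both scales. On the common scale Ttr was lowest on replicate 2 and highest on replicate 3, no longer the reverse of Cldn2. Some orders rest on gaps smaller than the pooled SD of 0.39 to 0.52 between probes of a gene. Examples are Ttr on replicates 3 and 4, at -0.41 and -0.33, and Foxc1 there, at -0.48 and -0.41. Such orders are not settled by the values. Over all probes, each of the 6 possible orders was held by 9.44% to 23.4% as deposited. Randomly paired probes would share an order at a rate within that range, where the 14.3% of member pairs also lay. The number of matching pairs is therefore not read as a trait of these genes. With 4 arrays no correlation across samples was computed.

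The sign of replicate 1 divided the genes into 2 sets. Ptgds, Col6a1, Cldn2 and Msx1 had a single sign on all 4 arrays as deposited, 4 of 7, where 15.5% of 5687 probes did. Foxc1, Ttr and Kl had a single sign on all 4 arrays once replicate 1 was turned, 3 of 7, where 18.1% of probes did. No choice of sign for replicate 1 therefore gave all 7 genes, or all 3 genes of either tissue, a single sign throughout. Because all 7 had a single sign on replicates 2 to 4, each had to fall in 1 of the 2 sets. The matching background is the 1912 probes with a single sign on replicates 2 to 4 and a value on replicate 1. Replicate 1 shared that sign for 46.1% of them as deposited and for 53.9% once turned. The division of the members was near these shares. The split ran through both tissues, since Col6a1 and Ptgds fell in the first set and Foxc1 in the second, and Cldn2 in the first with Ttr and Kl in the second. In bulk RNA, a smaller share of cells of a type and less RNA per cell cannot be told apart. Dye, channel and genotype cannot be told apart within replicates 2 to 4.

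By the distance between log ratios over all 4 arrays, which is the same whichever sign replicate 1 has, no member had another member among its 3 nearest genes. The measure was the square root of the summed squared differences, over 5207 named probes of 5017 other genes. It depends on the size and sign of the log ratios, for which the members were picked. How far the members lie from each other is therefore a description and no measure of whether they varied together. Nearest to Foxc1 were Tcf7l2, a partner of beta-catenin, at a distance of 0.17, the drug exporter Abcg2 at 0.24 and the neuronal factor Neurod2 at 0.25. Nearest to Ttr were Calb1, the calcium buffer calbindin, at 0.17, the homeobox gene Meis1 at 0.26 and Cacng1, a calcium channel subunit, at 0.30. Nearest to Kl were the sarcoglycan Sgcd at 0.16, the checkpoint kinase Chek2 at 0.20 and Atm, the kinase of the DNA break response, at 0.21. These neighbours had values almost equal to the member's on each array.

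The members with large log ratios had no close neighbour. Ptgds was nearest to Swap70 at 1.34, followed by the cell cycle factor E2f3 at 1.5 and the Wnt co-receptor Lrp6 at 1.75. Swap70 had -1.65, -0.88, -0.31 and -0.89 on replicates 1 to 4. Cldn2 was nearest to the agouti gene, symbol a, at 0.80, then to the sulfotransferase Sult3a1 at 0.82 and the small heat shock protein Hspb7 at 0.82. Col6a1 was nearest to the calcium channel subunit Cacnb1 at 1.66, with -4.72 on replicate 2 and -2.13 on replicate 3. The kinase Map4k1 at 1.89 and the enamel protein gene Ambn at 1.92 followed. Msx1 was nearest to Asph, an aspartyl hydroxylase, at 1.74, to Ky, a muscle protein, at 2.25 and to the ETS factor Ets1 at 2.84, all with values between -5.06 and -4.54 on replicate 3. The closest other member was farther off in each case. For Ptgds it was Ttr at 2.72, with 463 probes of other genes nearer. Foxc1 and Ttr were 1.12 apart, with 2826 probes nearer to Foxc1 and 643 nearer to Ttr. Cldn2 and Kl were 1.62 apart, with 110 probes nearer to Cldn2 and 3082 nearer to Kl. For Col6a1 it was Ttr at 3.16, with 61 probes nearer. For Msx1 it was Col6a1 at 4.53, with 29 probes nearer.

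Other marker genes of both tissues were set beside the members. Of 48 further choroid plexus genes, 16 had values on replicates 2 to 4. Of these, 11 had a negative and 5 a positive mean, with a median of -0.08, where the median over all genes was -0.016 and 52.5% of genes were negative. No gene of this list had an unadjusted p under 0.05 in limma, against 9.71% of all genes and unnamed probes. The gene with the smallest p was Folr1, the folate receptor of that epithelium, with -0.22, -0.38 and -0.25 on replicates 2 to 4 in turn, a mean of -0.28 ± 0.08 (SD, n = 3), an adjusted p of 0.563 in limma and -0.03 on replicate 1. Of the 16 genes, 6 were negative and 1 was positive on each of replicates 2 to 4. Over all genes and unnamed probes, 17.3% and 16.4% were. Otx2 and Igfbp2 were named after their values were seen. Otx2, the homeobox factor that specifies the choroid plexus, had -1.19, 0.53, -0.41 and 0.07 on replicates 1 to 4, which is no shared sign. Igfbp2 had -0.86, -0.23, -0.31 and -0.07, negative on all 4 arrays as deposited. The lowest and the highest mean of the list were -0.28 and 0.35, so that Ttr lay below and both Cldn2 and Kl above every other measured choroid plexus gene. Since the members were picked for their log ratios, their place outside this and the other lists is a description only.

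The list median of the choroid plexus genes was -0.14, -0.10, -0.23 and -0.02 on replicates 1 to 4 in turn. It was lowest on replicate 3, whereas Ttr was lowest on replicate 2 and Kl highest on replicate 3. On each of replicates 2 to 4, between 9 and 12 of the 16 genes were negative. On replicate 1 there were 12 as deposited, or 4 with a median of 0.14 once the array was turned. The median over replicates 2 to 4 was -0.16 without replicate 4 and -0.04 without replicate 3.

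Of 58 further genes of meninges and mesenchyme, 35 were measured, 17 negative and 18 positive, with a median of 0.0038. At an unadjusted p under 0.05 in limma, 5 were positive and 1 was negative, and none passed after adjustment. Over all genes and unnamed probes, 5.62% were positive and 4.09% negative at that p. The positive genes were Col6a3, a collagen VI chain, at 0.61 ± 0.22 (SD, n = 3), the calcium-binding protein S100a6 at 0.55 ± 0.12, the fibrillar collagen gene Col5a1 at 0.68 ± 0.56, the matrix protein Tgfbi at 0.46 ± 0.22, and the matrix proteoglycan Ogn, outside the naming rule, at 0.45 ± 0.32. The adjusted p in limma was 0.442 for Col6a3 and S100a6, 0.460 for Col5a1 and Tgfbi and 0.503 for Ogn. The negative gene was the organic anion transporter Slc22a8, named because it was the only one, at -0.79 ± 0.74 (SD, n = 3) and an adjusted p of 0.478. Thus, on replicates 2 to 4, the 4 listed genes with the smallest p had the sign opposite to Ptgds, Foxc1 and Col6a1. On replicate 1 as deposited, Col6a3, S100a6, Col5a1 and Tgfbi were negative, at -0.28, -0.49, -0.56 and -0.48. There Ptgds and Col6a1 were negative too and Foxc1 was positive. The median of the list was -0.18, -0.010, -0.022 and 0.07 on replicates 1 to 4 in turn, and Ptgds and Col6a1 lay below that median on replicates 2 to 4 and, as deposited, on replicate 1. With replicate 1 turned, both lay above it there, at 1.86 and 0.31 against 0.18. The median over replicates 2 to 4 was 0.09 without replicate 3 and -0.010 without replicate 4.

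**Figure D3:**
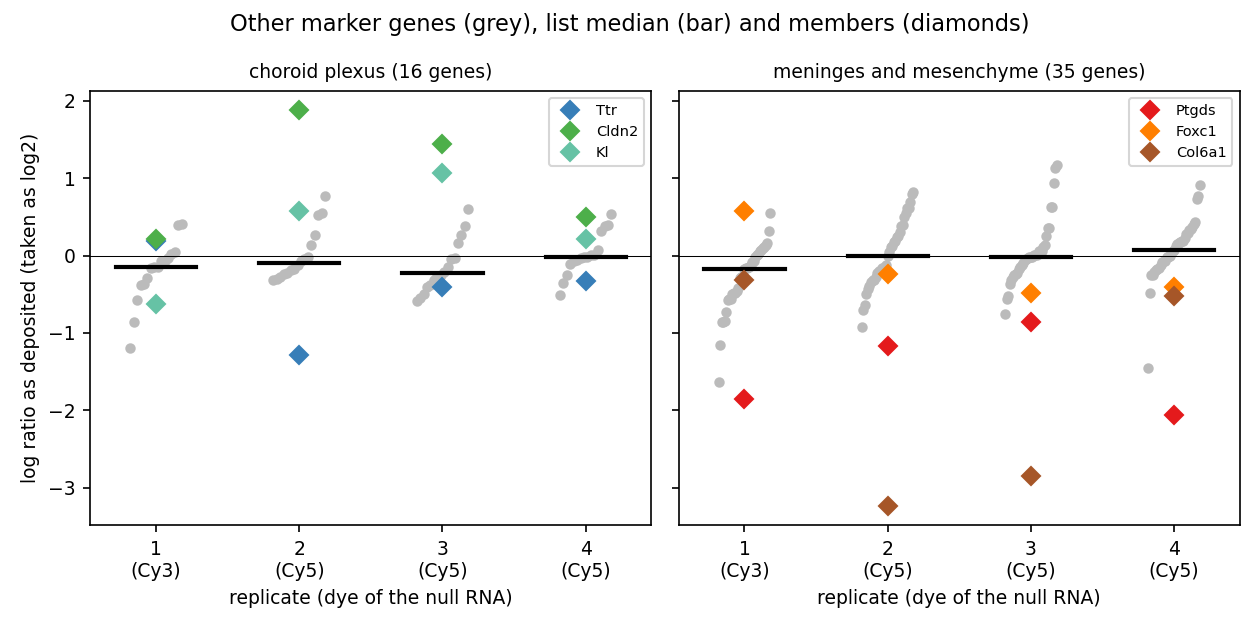
Log ratio as deposited, taken as log2 (vertical axis), of the other measured choroid plexus genes (left, 16 genes) and of meninges and mesenchyme (right, 35 genes) on each array (horizontal axis), as grey points with the list median as a bar and the members as diamonds. The medians lie between -0.23 and 0.07 on the arrays as deposited, while Cldn2, Ttr, Col6a1 and Ptgds lie outside the grey points on replicate 2. The members were picked for their log ratios on these arrays, and the lists were drawn up with earlier results of these arrays known.

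The chains of collagen VI were compared because they assemble into a single molecule. Col6a2 had no value on any array. Col6a3 had 2 probes with values, one at 1.22, 0.30 and 0.61 on replicates 2 to 4 in turn, the other at 0.43, 0.94 and 0.13. Both were positive on each of replicates 2 to 4, where Col6a1 was negative, and their means were 0.71 ± 0.47 and 0.50 ± 0.41 (SD, n = 3) against -2.20 ± 1.46 for Col6a1. On replicate 1, the Col6a3 probes had -0.93 and 0.37, so that they did not share a sign there. Among all 20 measured collagen genes other than Col6a1, 12 were positive and 8 negative over replicates 2 to 4, 6 were positive on each of these arrays and 0 negative on each. Over all genes and unnamed probes, 16.4% were positive and 17.3% negative on each. The lowest mean among them was -0.41, and at an unadjusted p under 0.05 in limma 3 were positive, Col6a3, Col5a1 and Col19a1, and 0 were negative, with none called after adjustment, where 5.62% and 4.09% of all genes and unnamed probes were positive and negative at that p. The list median was 0.21, 0.31 and 0.016 on replicates 2 to 4 in turn. On replicate 1, 19 of the 20 were negative as deposited, with a median of -0.49. With that array turned, the same 19 were positive with a median of 0.49, so that whether the collagens differed in sign between replicate 1 and replicates 2 to 4 rests on its unsettled direction. Over all genes, 49.4% were negative on replicate 1 as deposited.

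**Figure D4:**
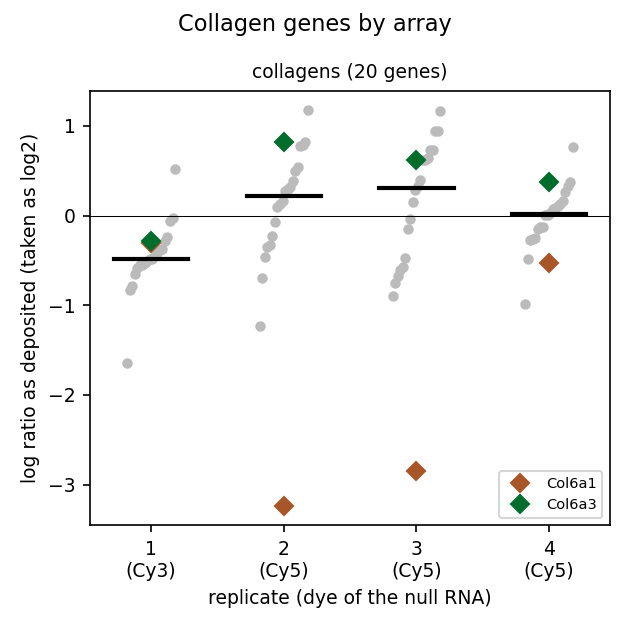
Log ratio as deposited, taken as log2 (vertical axis), of 20 collagen genes on each array (horizontal axis), with the list median as a bar, Col6a1 in brown and Col6a3 in green. Col6a1, picked for its log ratios on these arrays, lies below every other collagen gene on replicates 2 and 3, at -3.23 and -2.85. Col6a3 lies above 0 on replicates 2 to 4.

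Genes that work with the other members were also looked up. For each of these lists, the share of all genes and unnamed probes at an unadjusted p under 0.05 was 9.71%, and the share with a negative mean was 52.5%. In the prostaglandin pathway, 8 of 26 genes were measured, 4 positive and 4 negative, with a median of -0.022. Only Ptgis, the prostacyclin synthase, reached an unadjusted p under 0.05 there, with a mean of -0.97 ± 0.66 (SD, n = 3) and an adjusted p of 0.442 in limma. It had -0.41, -1.70 and -0.80 on replicates 2 to 4 in turn, and was thus lowest on the array where Ptgds was nearest to 0. Of the claudins and other tight junction genes, 13 of 31 were measured, 5 positive and 8 negative, with a highest mean of 0.32, below that of Cldn2. The highest was Cldn3, named for that after its values were seen, with -0.17, 0.61 and 0.53 on replicates 2 to 4. Tjp3, a scaffold of tight junctions, alone reached an unadjusted p under 0.05, with -0.48 ± 0.38 (SD, n = 3) and an adjusted p of 0.503 in limma.

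Carriers and receptors of thyroid hormone and retinol, which include the ligands' path beside Ttr, had 14 of 26 measured, 5 positive and 9 negative. At an unadjusted p under 0.05 in limma, the retinol receptor Stra6 was positive at 0.49 ± 0.26 (SD, n = 3), and Rarb and Thra, the receptors of retinoic acid and thyroid hormone, were negative at -0.46 ± 0.31 and -0.54 ± 0.50. Their adjusted p was 0.460, 0.490 and 0.512. Klotho's relatives and the FGF pathway had 16 of 27 measured, 6 positive and 10 negative, with none at that p, and Fgf17 had the smallest, at 0.35 ± 0.17 (SD, n = 3) and an adjusted p of 0.528 in limma. Of the forkhead factors, 19 of 35 were measured, 6 positive and 13 negative, and Foxd2 at -0.66 ± 0.28 (SD, n = 3), Foxa2 at -0.53 ± 0.29 and Foxj2 at -0.58 ± 0.43 had an unadjusted p under 0.05. Their adjusted p in limma was 0.442 for Foxd2 and 0.460 for Foxa2 and Foxj2. Foxd2, like Foxc1, had the opposite sign on replicate 1 as deposited, at 1.40.

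Genes of the dorsal midline, from which the choroid plexus arises and where Msx1 is expressed, had 20 of 32 measured, 7 positive and 13 negative, with a median of -0.12 that was -0.025 without replicate 4. Over all genes and unnamed probes, 52.5% had a negative mean and 9.71% an unadjusted p under 0.05 in limma. Only Bmp2, a BMP ligand, reached an unadjusted p under 0.05 in limma, with -0.54 ± 0.08 (SD, n = 3) and an adjusted p of 0.442, with -0.61, -0.54 and -0.46 on replicates 2 to 4 and -0.20 on replicate 1. It was negative on all 4 arrays as deposited, as Msx1 was. Msx2, the close relative of Msx1, was looked up for that kinship and had 0.06, -0.26, -0.29 and -0.16 on replicates 1 to 4 in turn. Msx2 thus had no low value on replicate 3 comparable to that of Msx1. The highest mean of the list was that of Wnt8b, named for that after its values were seen, at 1.28 ± 2.24 (SD, n = 3). Wnt8b had 3.73, 0.77 and -0.66 on replicates 2 to 4 in turn and no value on replicate 1.

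Markers of further cell types that can come with these tissues were measured for vessels, mural cells, blood, and microglia and leukocytes, and those of the neocortex itself beside them. Of all genes and unnamed probes, 52.5% had a negative mean. The vessel genes, present in both meninges and plexus, had 17 of 24 negative and a median of -0.25, with 7 negative and 1 positive at an unadjusted p under 0.05 in limma, against 4.09% negative and 5.62% positive of all genes and unnamed probes. Their median was -0.11, -0.22, -0.44 and -0.24 on replicates 1 to 4 in turn, lowest on replicate 3, and -0.12 over 4 arrays with replicate 1 turned. The endothelial factors Bcl6b at -0.75 ± 0.12 (SD, n = 3), Sox17 at -1.41 ± 0.86 and Etv2 at -0.65 ± 0.22 were negative and Tal1, of blood and endothelial precursors, was positive at 0.73 ± 0.27. On replicate 1 as deposited, Bcl6b, Sox17 and Etv2 were positive, at 0.40, 0.26 and 0.68, opposite to the list median there. Tal1 had 0.53, 0.63 and 1.04 on replicates 2 to 4 and -4.06 on replicate 1 as deposited, far from the others in size. The adjusted p of these genes in limma was 0.428, with 0.442 for Etv2. Bcl6b, Etv2 and Tal1 were put in the list because of results already known from these arrays. The part of vessel tissue in the values of the members was not tested.

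For the counts of negative genes that follow, 52.5% of all genes and unnamed probes had a negative mean. Mural cell genes had 4 of 7 negative and none at an unadjusted p under 0.05 in limma, with Des, the muscle filament desmin, at -0.38 ± 0.35 (SD, n = 3) and an adjusted p of 0.555. Blood genes had 7 of 12 negative, with the embryonic globin Hba-x at -0.74 ± 0.17 and the anion exchanger Slc4a1 at -0.49 ± 0.15, at adjusted p values of 0.428 and 0.460. Microglia and leukocyte genes had 10 of 14 positive and a median of 0.33, the sign of Cldn2 and Kl, with 5 positive at an unadjusted p under 0.05 in limma, against 5.62% of all genes and unnamed probes. Without replicate 3 this median was 0.20. On replicate 1, 9 of 13 were negative as deposited, with a median of -0.13, and turned the median was 0.13. Lyz1, a lysozyme, had 0.74 ± 0.03, the lysosomal protein Laptm5 0.87 ± 0.36, the protease Ctss 0.90 ± 0.60, the adaptor Tyrobp 0.56 ± 0.33 and Lyz2, a near-identical lysozyme gene outside the naming rule whose signal may not be separable, 0.53 ± 0.28. Their adjusted p in limma lay between 0.428 and 0.460. On replicate 1 as deposited, Lyz1, Ctss, Tyrobp and Lyz2 were positive, at 0.81, 0.72, 0.19 and 0.56, and Laptm5 was negative at -0.29. Lyz1, Ctss, Tyrobp and Lyz2 thus had the sign opposite to the list median on that array, whichever way it is turned. Neocortical genes had 21 of 31 negative and a median of -0.06. Against 5.62% and 4.09% of all genes and unnamed probes, 2 were positive and 3 negative at an unadjusted p under 0.05 in limma. These were the GABA-synthesising enzyme Gad2 at 0.72 ± 0.22, the microtubule protein Dcx, outside the naming rule, at 0.40 ± 0.21, and the cortical factors Emx1, Cux1 and Neurod2 at -0.63 ± 0.37, -0.49 ± 0.22 and -0.44 ± 0.25 (SD, n = 3), none called after adjustment. The median of the neocortical genes was 0.017, -0.07, -0.08 and -0.15 on replicates 1 to 4 in turn.

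Together the 14 lists held 234 measured genes besides the members, of which 0 had an adjusted p under 0.05 in limma and 36, or 15.4%, an unadjusted p under 0.05, against 9.71% of all genes and unnamed probes. Of these 36, 21 were negative and 15 positive. Without replicate 2 the number was 13, and with array weights 57. Since the lists were drawn up with earlier results of these arrays known, the share is a description only.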

How the data were processed

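Total RNA of neocortex was measured on 4 two-colour arrays. The authors' deposited values are 1 column of log ratios per array, taken as log2 from their range, since no source used here gives the background correction, normalization, log base or numerator. No further columns of values were present (0 unused). The gene deleted in the mutants is not reported here. Probes were named from the platform annotation, 6269 with 1 symbol, 6 with several and 581 with none. Entrez IDs of 6250 probes were found in RefSeq, which changed 0 symbols.

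Of 6856 probes, 981 had no value and 188 lacked some. Means of replicates 2 to 4, with null RNA in Cy5, were fitted with limma 3.58.1 in R 4.3.3 (two-sided, against 0) over 5720 probes, or over 5529 genes and unnamed probes after averaging by symbol, and adjusted by Benjamini-Hochberg over all of them. A plain mean and SD describe the members. P-values measure the spread between these samples against 1 pool. The number of arrays limits the precision. In simulated data for 3 arrays (5720 probes), limma recovered 50.8% of 2-fold and 96.5% of 4-fold changes, with 5.44% of calls false. The simulated errors were independent between arrays. They held no error shared through the single pool and no dye effect, so these rates may not hold for the real arrays.

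The members and lists were chosen with earlier results of these data known. In each list, up to 4 genes with the smallest p among those under 0.05 unadjusted were named, or otherwise the 1 with the smallest p, and the 3 nearest genes of each member. Exceptions are marked. Alternatives were the sign of replicate 1, centring, a common scale, array weights, a robust prior, a missing value allowed, an adjusted p of 0.1, single probes and leaving out each of replicates 2 to 4.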

Additional observations from a re-analysis of the deposited data

Results flagged for a closer look

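Msx1 had -6.27 on replicate 3, which lay far from its other 3 values as deposited (-1.25, -0.43 and -0.87), measured by the gap to the nearest value against the whole range. Msx1 was picked for its values on these arrays, so this gap is a description and not a test. With replicate 1 turned to 1.25, the gap was a smaller part of the range. On replicate 3, 6 probes measured on every array lay beyond 4 in size, and 5 of these, Msx1 among them, were within 1.5 on all other arrays. On replicates 1, 2 and 4 there was 1 such probe each.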

How the results depend on the processing

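The sign of the mean of each member was kept in all 49 recomputations, and 47 of these moved by less than 1 SD. The others were Ptgds at -0.56 with replicate 1 turned and Foxc1 at -0.14 with it as deposited. Leaving out 1 of replicates 2 to 4 could not change a sign, since each member had a single sign on them. Nor can a mean of 3 values move by 1 SD when 1 value is left out. Those recomputations are therefore no measure of stability. Without replicate 3 Msx1 had -0.65 and Kl 0.39, and without replicate 2 Ttr had -0.37. Of 98 recomputed list medians, 13 moved by more than the SD between arrays, and 8, in 6 of the 14 lists, changed sign. Over 4 arrays with replicate 1 turned, the claudins went from -0.12 to 0.13, meninges to 0.08 and vessels to -0.12. With it as deposited, microglia had 0.22, neocortical genes -0.10, meninges -0.04, mural cells 0.016 and collagens -0.06. Without replicate 2, klotho and FGF went from -0.12 to 0.13, the prostaglandin pathway to 0.04, the dorsal midline to -0.09 and neocortical genes to -0.10. Without replicate 3, meninges had 0.09, the dorsal midline -0.08, microglia 0.20, thyroid hormone and retinol -0.20 and claudins 0.05. Without replicate 4, the dorsal midline had -0.025, meninges -0.010 and the choroid plexus -0.16. The number of probes at an adjusted p under 0.05 in limma was 2 over 4 arrays as deposited, 3 with array weights, 1 with a robust variance prior, 1 at an adjusted p of 0.1 and 0 under the other settings. At an unadjusted p under 0.05, array weights gave 1067 probes, and leaving out a replicate gave 236 (without replicate 2) to 621. For the listed genes the numbers were 57 with array weights and 13 (without replicate 2) to 36 when a replicate was left out. The number of members with a single sign on 4 arrays was 4 as deposited, 4 on a common scale and 3 with replicate 1 turned. The cause of these shifts was not tested. No paired analysis was possible because the arrays form 1 group against a shared pool. Signal over background is unknown here, so a large ratio of a dim spot cannot be recognised.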
